A study of Drosophila melanogaster with 4 samples.

Results

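The tubulin genes of Drosophila were compared between wild-type and bru1 mutant flight muscle. The set was chosen by symbol and holds 9 genes: 4 alpha tubulins (alphaTub84B, alphaTub84D, alphaTub85E and alphaTub67C), 4 beta tubulins (betaTub56D, betaTub60D, betaTub85D and betaTub97EF) and the gamma tubulin gammaTub23C. The deposited table of normalized counts held a row for 8 of the 9, among 10626 genes in all. alphaTub67C, an alpha tubulin of the female germline and early embryo, had no row and was not analysed here.

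The mRNA-Seq libraries were made from the indirect flight muscle (IFM), a fibrillar muscle that drives the wingbeat, of 1 d adults raised at 27 °C. There were 2 libraries from w1118, the wild type, and 2 from bru1M3, each from the pooled muscle of many flies. bru1M3 is 1 CRISPR allele of bruno1 (bru1), which encodes an RNA-binding protein that controls alternative splicing in IFM; a cassette with a splice acceptor and stop codons sits in front of the last exons. The allele is carried in every tissue and throughout development, so it is not a mutation of the muscle alone.

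Alpha and beta tubulin form the dimers from which microtubules are built, and gamma tubulin is part of the complex that starts a new microtubule. Each kind is encoded by several genes, called isotypes, some used in nearly all cells and others in a few cell types. Newly made tubulin has to be folded by prefoldin, the chaperonin CCT and a set of tubulin cofactors before it can assemble. In developing flight muscle, microtubules line the growing cell and are thought to guide where organelles and contractile fibrils are placed.

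The 4 libraries held between 30384053 and 34105524 reads assigned to genes. The share taken by mitochondrial transcripts was 72.6% and 63.7% in w1118 and 41.2% and 29.0% in bru1M3, so the depth over nuclear genes differed by genotype, from 8326712 reads in w1118 replicate 1 to 21962285 in bru1M3 replicate 2. The flight muscle genes Act88F, fln and TpnC4 were abundant in every library, and none of the 3 passed the test between genotypes. After quantile normalization, 1 of the 3 was called higher. bru1 itself had 1807 and 1386 normalized counts in w1118 and 10618 and 9976 in bru1M3. The usage score of its bin 18, which 10 transcripts share, was 16.3 in w1118 and 9.27 in bru1M3. That of bin 21, among the last exons, was 19.2 in w1118 and 8.87 in bru1M3. The inserted cassette lies upstream of both bins. The paper reports raised bru1 mRNA of exons upstream of the cassette. It also reports that bru1 mRNA in bru1M3 IFM was strongly reduced by RT-qPCR. Antibody signal for the Bru1 protein was absent in bru1M3 IFM of late pupae. The paper predicts a phenotypic null allele. Photoreceptor genes stood apart in w1118 replicate 1: the sum of ninaE, ninaC, trp and Arr2 was 3284 there against 198, 19.1 and 281 normalized counts in the other libraries.

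alphaTub84B and betaTub56D were the tubulin genes called higher in bru1M3, while 6 of the 8 tested had a positive log2 fold change. Both encode isotypes used in nearly all cells. The reads behind each value ranged from 814 reads for betaTub56D in w1118 replicate 1 to 8452 reads for alphaTub84B in bru1M3 replicate 1. Of the 8 genes tested, 2 were called higher and 0 lower at an adjusted p of 0.05, and 3 had an unadjusted p below 0.05. Across all genes 22.2% were called, 12.8% higher and 9.33% lower, so the number of tubulin genes called was close to the background. The median log2 fold change of the 8 genes was 0.69, and that of all tested genes was -0.0001. The split of calls over all genes depended on the scaling, with 57.9% of called genes higher as deposited, 47.8% after quantile normalization and 45.4% with equal totals of nuclear genes, which moved the median of all genes by -0.13 on the log2 scale. In a bulk sample, fewer cells of a type and less RNA per cell cannot be told apart.

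**Figure D1:**
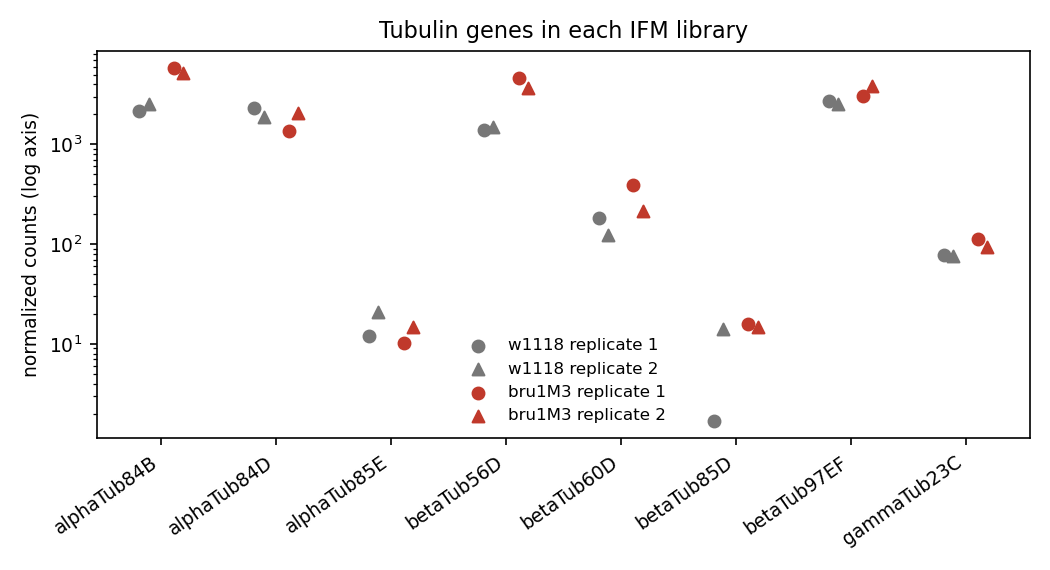
Normalized counts (log axis) of the 8 tubulin genes in each of the 4 libraries, with w1118 in grey, bru1M3 in red, circles for replicate 1 and triangles for replicate 2. The bru1M3 points of alphaTub84B lie at 5768 and 5207, above both w1118 points at 2175 and 2536, whereas those of alphaTub84D overlap.

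Among the alpha tubulins, alphaTub84B (FBgn0003884) lies on chromosome arm 3R, from 7086599 to 7088839 on the plus strand of BDGP6, and has 1 transcript of 2 exons, a short one with the 5' UTR and the start codon and a long one with the rest of the coding sequence and the 3' UTR. Its level was 2175 and 2536 normalized counts in w1118 and 5768 and 5207 in bru1M3. Both mutant libraries lay above both wild-type libraries. The mean rose 2.33-fold, from 2356 ± 255 to 5487 ± 396 (SD, n = 2), and the log2 fold change was 1.22 (SE 0.17, 95% interval 0.83 to 1.62) with a limma adjusted p of 0.00287. The log2 fold change stayed between 1.11 and 1.33 when each library was left out in turn.

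alphaTub84D (FBgn0003885; 3R, 7530753 to 7532732, plus strand) is a single-exon gene whose protein is nearly the same as that of alphaTub84B. It had 2328 and 1896 normalized counts in w1118 and 1372 and 2038 in bru1M3. The genotypes overlapped, since bru1M3 replicate 2 lay between the w1118 libraries. The log2 fold change was -0.33 (95% interval -0.87 to 0.21) with a limma adjusted p of 0.341. After quantile normalization the value was -0.70 with an adjusted p of 0.0411, which is past the threshold. How reads that fit both genes were counted is not given in the sources used here, so the split between alphaTub84B and alphaTub84D is uncertain to that extent.

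The 2 genes did not move in parallel. The ratio of alphaTub84B to alphaTub84D was 0.934 and 1.34 in w1118 and 4.20 and 2.56 in bru1M3. The ranges did not overlap, and the 95% intervals of the log2 fold changes did not touch. With 2 libraries against 2, an exact two-sided permutation test of the ratio gave p = 0.333, the smallest value the design allows.

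alphaTub85E (FBgn0003886; 3R, 9731221 to 9733250, minus strand) encodes an isotype known from developing muscle attachments, sensory organs and the testis. It was near the limit of detection, with 11.9 and 20.8 normalized counts in w1118 and 10.2 and 14.6 in bru1M3, which stand for 7 to 19 reads. The values overlapped, and the log2 fold change of -0.34 had an interval from -1.82 to 1.14 (limma adjusted p 0.734), so a change within that interval was not detectable at this depth. CG7794, an alpha tubulin-like gene outside the set, had 0, 3, 8 and 14 reads across the 4 libraries and did not pass the filter on low values.

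Among the beta tubulins, betaTub56D lies on 2R, from 19447319 to 19451600 on the minus strand, and is the isotype found in most tissues. It had 1385 and 1482 normalized counts in w1118 and 4578 and 3697 in bru1M3. Both mutant values lay above both control values. The mean rose 2.89-fold, and the log2 fold change was 1.52 (SE 0.18, 95% interval 1.11 to 1.93) with a limma adjusted p of 0.00126. With libraries left out in turn it ranged from 1.37 to 1.68.

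betaTub97EF (3R, 27967008 to 27988384, minus strand) spans the longest stretch of the set and has 2 annotated transcripts. It was the beta tubulin with the highest level in w1118, with 2713 and 2548 normalized counts, and had 3018 and 3870 in bru1M3. The genotypes did not overlap, but the log2 fold change of 0.38 (95% interval -0.05 to 0.80) did not pass the test (limma adjusted p 0.178), and after quantile normalization it was 0.02. The ratio of betaTub56D to betaTub97EF was 0.511 and 0.582 in w1118 and 1.52 and 0.955 in bru1M3 (exact permutation p = 0.333).

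betaTub60D (2R, 24305881 to 24313099, plus strand), the isotype of the embryonic mesoderm and of muscles as they form, had 182 and 123 normalized counts in w1118 and 394 and 215 in bru1M3. The values did not overlap, and the replicates of each genotype were far apart. The log2 fold change was 0.96 (SE 0.35, 95% interval 0.13 to 1.78), with an unadjusted p of 0.0284 and a limma adjusted p of 0.0927. DESeq2 on reads recovered from the deposited values gave 1.00 with an adjusted p of 0.0457, and without bru1M3 replicate 1 the limma value was 0.52 with an adjusted p of 0.457.

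betaTub85D (3R, 9408383 to 9410282, minus strand), which encodes the beta tubulin of the male germline, had 1.70 and 14.2 normalized counts in w1118 and 15.7 and 14.6 in bru1M3. The low value in w1118 replicate 1 stood for 1 read, and the other libraries had 13 to 23 reads. The log2 fold change of 1.33 had an interval from -0.91 to 3.57 (limma adjusted p 0.354) and was 0.08 without w1118 replicate 1. The male germline genes were also low: 6 of 8 listed had a row, none of the 3 tested was called, and their summed level was 35.7 and 88.7 normalized counts in w1118 and 60.7 and 26.9 in bru1M3. ProtA, which packs sperm DNA, was at 0 in w1118 replicate 1 and bru1M3 replicate 2. Of 5 female germline genes, aub was matched to a row, vas, osk and bam had none, and nos could not be matched to 1 gene. aub was at 3.40 and 8.76 normalized counts in w1118 and 14.3 and 15.4 in bru1M3.

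gammaTub23C (2L, 2972891 to 2974858, plus strand), the gamma tubulin of somatic cells, had 78.3 and 75.6 normalized counts in w1118 and 113 and 93.8 in bru1M3. The mutant values were the higher ones, but the log2 fold change of 0.42 had an interval from -0.28 to 1.12 and a limma adjusted p of 0.353. In all, 6 of the 8 genes had genotypes that did not overlap, against 64.5% of all tested genes, so that separation alone marked none of them out.

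**Figure D2:**
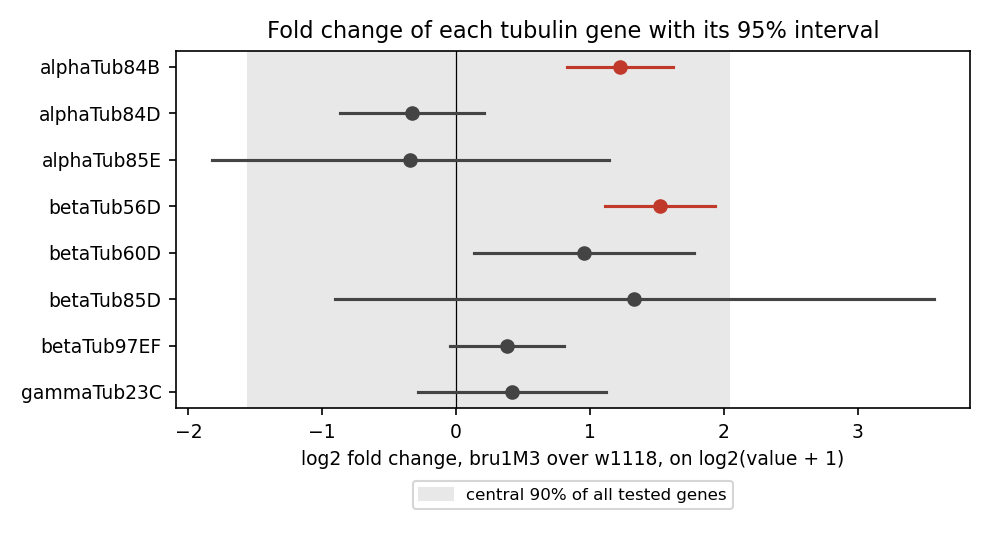
Log2 fold change (bru1M3 over w1118, on log2(value + 1)) of each tubulin gene from limma, where points are estimates, bars are 95% intervals and red marks an adjusted p under 0.05. The grey band spans the 5th to the 95th percentile of all tested genes, -1.55 to 2.04, and the estimates of all 8 tubulin genes lie within it.

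Per kilobase of exon, the order of the isotypes differed between genotypes. In w1118, betaTub97EF (1451 and 1363 normalized counts per kb) and alphaTub84B (1241 and 1448) were highest and overlapped each other. alphaTub84D followed with 1176 and 958, and betaTub56D with 741 and 793. In bru1M3, alphaTub84B led with 3292 and 2972 normalized counts per kb. It was followed by betaTub56D with 2450 and 1978 and betaTub97EF with 1615 and 2070, whose ranges overlapped, and by alphaTub84D with 693 and 1029. In both genotypes betaTub60D came next, with 72.3 and 48.7 in w1118 and 156 and 85.5 in bru1M3, then gammaTub23C with 42.3 and 40.9 and with 61.2 and 50.7. alphaTub85E and betaTub85D were at the bottom, at no more than 13.3 normalized counts per kb in any library.

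The summed alpha and beta tubulin level was 8797 and 8621 normalized counts in w1118 and 15155 and 15056 in bru1M3. The replicates were close to each other, and the mutant sum was 1.73-fold the wild-type sum (exact two-sided permutation p = 0.333, the smallest possible). Without alphaTub84B and betaTub56D, the remaining sum was 5236 and 4602 normalized counts in w1118 and 4809 and 6152 in bru1M3, and the genotypes overlapped. As a share of reads from nuclear genes, alpha and beta tubulin together made up 0.0621% and 0.0635% in w1118 and 0.111% and 0.0891% in bru1M3.

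The alpha and beta sums were near each other in all 4 libraries. The alpha sum was 4515 and 4453 normalized counts in w1118 and 7150 and 7259 in bru1M3, and the beta sum was 4282 and 4167 and then 8005 and 7797. Per kilobase, the ratio of alpha to beta was 1.07 and 1.09 in w1118 and 0.944 and 0.968 in bru1M3, a small difference in which the genotypes did not overlap.

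Isotype shares of the summed alpha and beta values shifted with genotype. alphaTub84B made up 24.7% and 29.4% in w1118 and 38.1% and 34.6% in bru1M3. betaTub56D made up 15.7% and 17.2% in w1118 and 30.2% and 24.6% in bru1M3. Both shares were higher in each mutant library than in each control library.

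The shares of the other abundant isotypes were lower in bru1M3. alphaTub84D made up 26.5% and 22.0% of the sum in w1118 and 9.05% and 13.5% in bru1M3. betaTub97EF made up 30.8% and 29.6% in w1118 and 19.9% and 25.7% in bru1M3. Their own levels did not pass the test, while the sum against which each share was taken was larger. Each of these 4 shares separated the genotypes with an exact permutation p of 0.333, the smallest possible.

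The rare isotypes made up little of the sum. betaTub60D was at 2.07% and 1.42% in w1118 and 2.60% and 1.43% in bru1M3, with overlap. alphaTub85E and betaTub85D were each below 0.25% in all libraries. Among the alpha tubulins alone, alphaTub84B made up 48.2% and 56.9% in w1118 and 80.7% and 71.7% in bru1M3, and among the beta tubulins betaTub56D made up 32.4% and 35.6% and then 57.2% and 47.4%. Dividing by exon length left the direction of each of these shifts as it was.

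**Figure D3:**
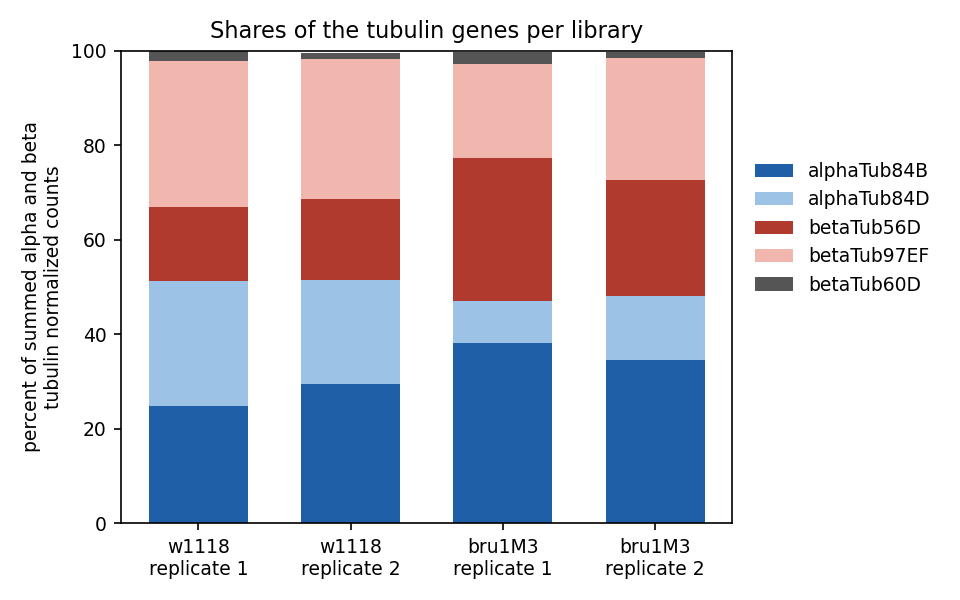
Share of the 5 most abundant tubulin genes in the summed alpha and beta normalized counts (percent) of each library, stacked from alphaTub84B at the bottom to betaTub60D at the top. The dark bars of alphaTub84B and betaTub56D take a larger part of both bru1M3 libraries, and the pale bars of alphaTub84D and betaTub97EF a smaller part.

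The exon bins, the exon pieces into which the exon-level analysis divides a gene, held little change in usage for most tubulin genes. There were 23 tubulin bins of 46187 in all, and 21 had usage scores. The scores are pooled values per genotype, so no spread between libraries can be stated. The usage score is on a variance-stabilised scale of the relative use of a bin within its gene. The median absolute difference between genotypes was 0.40 over the tubulin bins and 0.54 over all 44266 bins with scores. A difference above 1 was found in 4 of the 21 tubulin bins, or 19.0%, and in 24.8% of all bins.

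alphaTub84B and betaTub56D, whose gene levels rose, had nearly the same bin usage in both genotypes. The first exon of alphaTub84B scored 15.7 in w1118 and 15.6 in bru1M3, and its second exon 24.4 and 24.5. Both exons belong to its 1 annotated transcript, so these scores could not show a switch between annotated transcripts. For betaTub56D, the shared last exon (2R, 19447319 to 19448746) scored 22.9 and 22.7, and the first exon of transcript FBtr0086536 (19451433 to 19451600) scored 14.3 and 14.5. The alternative first exon of FBtr0086537, which starts at 19449327, had no bin. alphaTub84D and betaTub85D had 1 bin each and no usage score.

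betaTub97EF has a pair of alternative coding exons of equal length, 168 nt, and its transcripts differ in which of them they carry. The exon of FBtr0300611 (3R, 27969660 to 27969827) scored 15.5 in both genotypes. The other, that of FBtr0334906 (27969383 to 27969550), had no bin and was not analysed here. The mean count per base over all libraries was 5.45 for the exon of FBtr0300611, within the 3.95 to 8.76 of the bins shared by both transcripts. The last exon, with the stop codon and the 3' UTR, scored 15.6 in w1118 and 14.6 in bru1M3, the largest difference in this gene.

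The other 3 differences above 1 were all in betaTub60D, at low counts. Its bin 4 (2R, 24310896 to 24311137; coding; 242 nt) scored 3.89 in w1118 and 6.19 in bru1M3. The first bin, with the 5' UTR and the start of the coding sequence, scored 8.63 and 7.43, and the second, a coding exon of 109 nt, scored 6.29 and 4.89. The mean counts of these 3 bins were 52.2, 122 and 42.5 over the 4 libraries. Bin 3, a stretch of 3 nt that lengthens the third exon in FBtr0072270 and keeps the reading frame, had a mean count of 11.6 and scored 2.550 and 2.996. The last exon, which holds most of the gene's reads with a mean count of 578, scored 12.5 and 12.8. None of these differences was tested, and the spread between libraries is unknown.

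**Figure D4:**
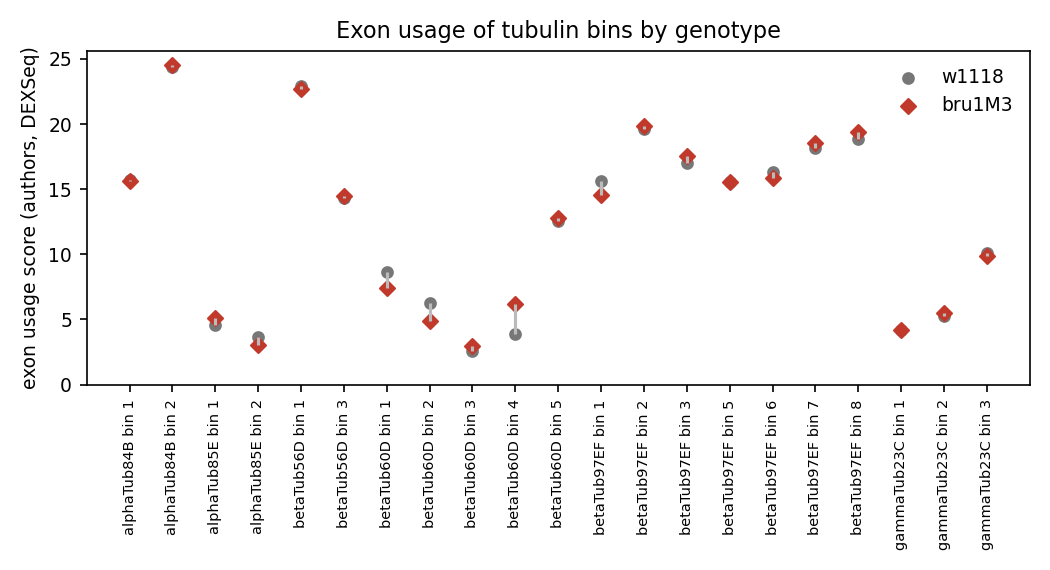
Exon usage score (DEXSeq) for the 21 tubulin bins with a score, with grey circles for w1118 and red diamonds for bru1M3, 1 pooled value per genotype. The symbols lie on top of each other for alphaTub84B and betaTub56D and are farthest apart for bin 4 of betaTub60D, at 3.89 and 6.19.

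Genes that fold tubulin were also called higher in bru1M3. All 8 subunits of CCT, the ring-shaped chaperonin that folds tubulin and actin, were tested, and 7 were called higher and 0 lower, against 12.8% of all genes called higher. Their median log2 fold change was 2.12. CCT2 had 226 and 273 normalized counts in w1118 and 2060.2 and 1351 in bru1M3, and its log2 fold change was 2.74 (SE 0.24, limma adjusted p 0.000434). CCT6 followed with 2.40 and CCT5 with 2.33, and CCT5 lost the call without either bru1M3 library. CCT8, the subunit not called, had 260 and 335 normalized counts in w1118 and 437 and 325 in bru1M3, which overlap. Without bru1M3 replicate 1, 3 of the 8 were called, with a median of 1.79, and without w1118 replicate 1, 7 of the 8.

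Prefoldin, which hands unfolded tubulin and actin to CCT, had 3 of 6 subunits called higher and 0 lower, with a median log2 fold change of 0.92, beside 12.8% of all genes called higher. Pfdn2 had 260 and 276 normalized counts in w1118 and 985 and 747 in bru1M3 (log2 fold change 1.67, limma adjusted p 0.00185). mgr had a log2 fold change of 1.52 and lost the call without bru1M3 replicate 1. Pfdn1 had one of 1.20 and lost the call when any library was left out. Pfdn6, not called, had a value of -0.48. Without bru1M3 replicate 1, 1 of the 6 was called.

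Tubulin cofactors take folded tubulin from CCT and join alpha to beta. Of the 5 genes tested, 3 were called higher and 0 lower, with a median of 1.14, where 12.8% of all genes were called higher. Tbce, which binds alpha tubulin, had 240 and 270 normalized counts in w1118 and 1201 and 1243 in bru1M3 (log2 fold change 2.26, SE 0.18, limma adjusted p 0.000303). TBCC, which triggers release of the finished dimer, had a log2 fold change of 1.99 and lost the call without bru1M3 replicate 1. TBCD, which binds beta tubulin, had one of 1.14 and lost the call when any library was left out. TBCB, the partner of Tbce, had 0.73 and was not called. Without bru1M3 replicate 1, 1 of the 5 was called.

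Genes that start new microtubules gave 1 call, where 22.2% of all genes were called. Of 15 genes of the gamma tubulin complex and augmin with a row, 11 were tested, 1 was called higher and 0 lower, against 12.8% of all genes called higher, and the median log2 fold change was 0.52. The called gene was msd1, an augmin subunit, named after its values were seen. It had 10.2 and 1.096 normalized counts in w1118 and 71.0 and 40.0 in bru1M3 (log2 fold change 3.49, limma adjusted p 0.0299). With a minimum value of 50, 6 genes of the list were tested and 0 were called. Without bru1M3 replicate 1 or replicate 2 no gene of this list was called. Grip91 and Grip84, the partners of gamma tubulin in its small complex, had log2 fold changes of 0.52 and -0.18 and were not called.

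Among microtubule-binding proteins, 8 of 16 tested genes were called higher and 1 lower, with a median of 0.73. Over all genes, 12.8% were called higher and 9.33% lower. After quantile normalization, 6 of the 16 were called higher and 2 lower, with a median of 0.48. Over all 9228 genes, 1095 were then called higher and 1196 lower. Map205, which binds along microtubules, had 522 and 531 normalized counts in w1118 and 9250.0 and 10984 in bru1M3, the largest log2 fold change of the pathway lists at 4.26 (SE 0.17, limma adjusted p 6.9e-05). CLIP-190 and Eb1, which bind the growing plus end, had log2 fold changes of 1.89 and 1.68. Without bru1M3 replicate 2, 4 of the 16 were called higher, and without bru1M3 replicate 1, 5.

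Of the 3 genes of this list with a negative log2 fold change, futsch, a neuronal microtubule-binding protein, was the one called lower with the deposited scaling. It had 764 and 1388 normalized counts in w1118 and 308 and 578 in bru1M3, and its log2 fold change was -1.29 (SE 0.37, limma adjusted p 0.0463). The call was lost without w1118 replicate 2 and without either bru1M3 library. Of the 5 neuron markers, 2 were called lower and 0 higher, nSyb with -1.65 and Syt1 with -1.62, and none was called without bru1M3 replicate 1. Their summed level was 3584 and 5572 normalized counts in w1118 and 1596 and 2179 in bru1M3, and the part of nerve tissue in the result for futsch was not tested.

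Severing and modifying enzymes gave 1 call, and 22.2% of all genes were called. Kat60, the catalytic katanin subunit, had 288 and 295 normalized counts in w1118 and 647 and 453 in bru1M3 (log2 fold change 0.89, limma adjusted p 0.0325). It was the 1 gene of 4 tested on the severing list that was called, and the call was lost without w1118 replicate 1, w1118 replicate 2 or bru1M3 replicate 1. Of 9 tested enzymes that modify tubulin, among them the acetyltransferase Tat and the deacetylase HDAC6 limma called 0 at an adjusted p of 0.05, and the median log2 fold change was -0.15. 1 of the 9 had an unadjusted p under 0.05, the glutamylase-like TTLL4B (log2 fold change -0.63, unadjusted p 0.0135), named after its values were seen. DESeq2 called 1 of the 9 lower and edgeR called 0, and limma also called 1 lower after quantile normalization, with equal totals of nuclear genes and, of 7 genes tested, with a minimum value of 50. Over the 59 tested genes of the pathway lists, 23 were called higher and 1 lower, and over all 9228 genes tested 1185 were called higher and 861 lower.

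**Figure D5:**
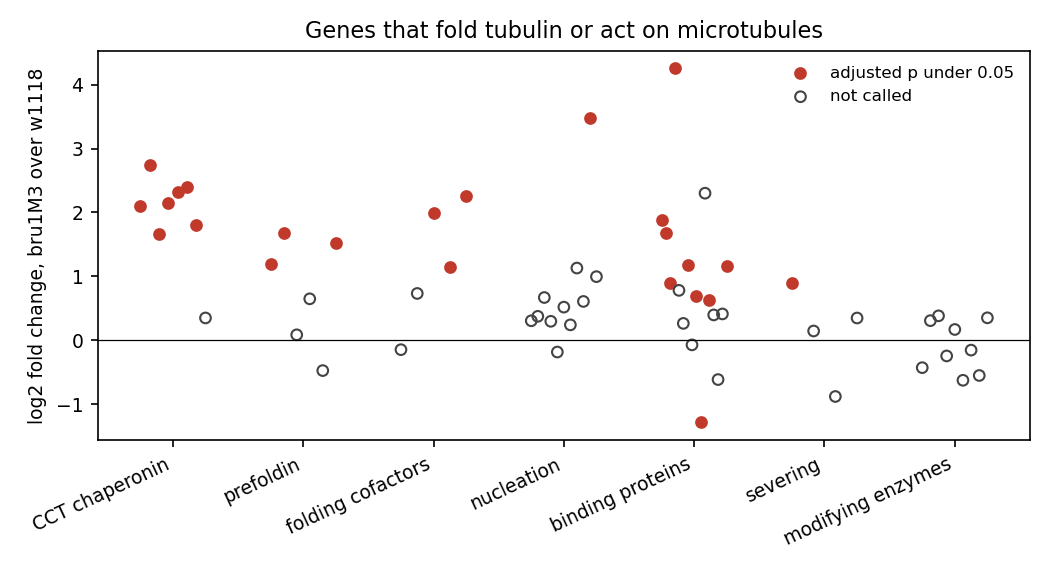
Log2 fold change (bru1M3 over w1118) of the 59 tested genes that fold tubulin or act on microtubules, by list, with filled red circles for an adjusted p under 0.05 and open circles for genes not called. 7 of the 8 CCT subunits are filled, whereas no modifying enzyme is.

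Markers of other cells that IFM dissections can hold were read beside the tubulin values. Of the 4 hemocyte genes, 2 were called lower (Hml with a log2 fold change of -1.002 and NimC1 with -1.17), and their summed level was 1591 and 1344 normalized counts in w1118 and 704 and 917 in bru1M3. Of the 3 tubular muscle genes, 2 were called lower (Act79B with -1.37 and TpnC41C with -1.11), and their sum was 4529 and 6539 in w1118 and 1872 and 2965 in bru1M3. The third, TpnC73F, had 0.13 and was not called. No hemocyte gene was called without w1118 replicate 1 or without either bru1M3 library, and no tubular muscle gene without bru1M3 replicate 1. Over all genes, 9.33% were called lower. Tendon genes moved in different directions, with sr called higher at 3.10 and Tsp called lower at -1.66, a call lost without either bru1M3 library. Their sum was 548 and 575 in w1118 and 744 and 691 in bru1M3. Of the 3 fat body genes with a row, Lsp2 was called higher at 1.53. This call was lost with a pseudocount of 0.1, with equal totals of nuclear genes, without w1118 replicate 1 and without either bru1M3 library. The fat body sum was 158 and 673 in w1118 and 972 and 633 in bru1M3, which overlap. None of the 3 glia, 3 tracheal, 4 photoreceptor or 1 chordotonal gene tested was called with the deposited scaling and all 4 libraries. The adult muscle progenitor gene that could be tested, zfh1, was not called either. With equal totals of nuclear genes, 1 photoreceptor gene was called lower. Photoreceptor genes were also called lower without w1118 replicate 2, where a single w1118 library remained. The photoreceptor median log2 fold change was -3.57 with all 4 libraries. It ranged from -5.58 (without w1118 replicate 2) to -1.48 (without bru1M3 replicate 1). The part of any of these cell types in the tubulin values was not tested. Without w1118 replicate 1, where photoreceptor genes stood apart, 2 tubulin genes were called, as with all 4 libraries.

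The genes most like the leading isotypes across the 4 libraries were found by the root mean square difference of centred log2 profiles, among the 5661 genes whose mean was no lower than 100 normalized counts. For alphaTub84B these were CG46491 (0.0268), BomS1 (0.0412) and CG4502 (0.0460). For betaTub56D they were RpA-70 (0.0307), spn-F (0.0321) and Nup358 (0.0395), and for betaTub97EF they were CG10702 (0.0139), CG11147 (0.0320) and CG9281 (0.0321). The difference between alphaTub84B and betaTub56D was 0.166, and that between alphaTub84B and alphaTub84D was 0.837. With 4 libraries, these values describe likeness over 2 genotypes and 2 replicates only.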

How the data were processed

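Per the labels and the study's methods, the authors mapped the reads with STAR (2.7.3a) to BDGP6, counted them with featureCounts of Subread (2.0.0) and normalized them with DESeq2 (1.32.0); SAMtools (1.1) is also listed. The deposited gene table holds normalized counts, a signal that equals reads divided by a size factor. Each value was a whole multiple of 1 read (100% of values, tolerance 0.01), so reads were recovered; no row held fewer than 10 reads over the 4 libraries. The deposited exon table gives the authors' DEXSeq usage score per genotype and a mean signal per bin. Its 4 per-library columns match no sample label and were not used, and neither were the authors' fold changes and p-values in either table.

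limma (3.58.1, R 4.3.3; lmFit, eBayes with trend) was fitted to log2(value + 1) of the 9228 genes with at least 10 in at least 2 of 4 libraries, with Benjamini-Hochberg adjustment over all of them and a threshold of 0.05. Fold changes on this scale understate the change of low genes. The script was tested on simulated data with 200 changed genes, where limma called more unchanged genes than the nominal rate of its threshold, so adjusted p-values near 0.05 are too small to that extent. Shares, sums and ratios were compared with exact two-sided permutation tests over libraries. Alternatives were other pseudocounts (0.1, 10), filters, scalings, edgeR (4.0.16) and DESeq2 (1.42.0) on recovered reads, a replicate block and leaving out each library.

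Nothing in the labels says that replicates are separate cultures, so p-values measure the spread between these libraries. The members, pathway lists and markers were chosen with earlier results of these data known. Named from each pathway list were the called genes with the lowest and highest fold changes and a mean of at least 100, at most 3 per direction. Gene positions and exon lengths came from an Ensembl BDGP6 annotation, whose exon starts matched those of the bins. 111 of 130 pathway and marker symbols had a row, 2 of them through another name.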

Additional observations from a re-analysis of the deposited data

How the results depend on the processing

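alphaTub84B and betaTub56D were called higher under every alternative run, with adjusted p from 7.3e-07 to 0.0408 and from 8.3e-10 to 0.0249, both largest without bru1M3 replicate 1. Quantile normalization added alphaTub84D as lower (log2 fold change -0.70), and DESeq2 added betaTub60D (1.00, adjusted p 0.0457), so 3 tubulin genes were called under each; the cause was not tested. Over all genes, 2046 were called, between 1935 and 2294 with all 4 libraries, and between 601 and 1503 when a library was left out, with 601 without bru1M3 replicate 1 and 977 without bru1M3 replicate 2; with fewer samples, the lone library of a genotype is assumed to vary like the others. With libraries left out, the log2 fold change of alphaTub85E ranged from -0.720 to 0.037 (0.037 without w1118 replicate 2) and the differences in share of betaTub60D and betaTub85D changed sign, from -0.317 to 0.851 and from -0.0649 to 0.0810 percentage points. Of the named folding and microtubule genes, Pfdn1, TBCD and Kat60 also lost the call with equal totals of nuclear genes, and Pfdn1 and futsch with a pseudocount of 0.1.

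The replicate numbers are not said to pair the libraries, and deviations of same-numbered libraries from their group means correlated at 0.0274 over 9228 genes. With a replicate block, 2294 genes were called, and 3 tubulin genes, since betaTub60D passed with an adjusted p of 0.0242. Depth limits alphaTub85E and betaTub85D, with 1 to 23 reads a library.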
